A study of Mus musculus with 4 samples.

Results

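The T cell receptor complex of cultured mouse T-helper 2 cells was examined through 9 genes, chosen by name, of the 50600 genes counted. They comprise 7 genes for chains of the receptor (Trac, Trbc1, Trbc2, Cd3e, Cd3d, Cd3g and Cd247) and 2 genes that lie on the strand opposite a chain gene, Gm48719 opposite Cd3e and Pou2f1 opposite Cd247. The study holds 1 group of 4 RNA-seq libraries from primary T-helper 2 cells of strain C57BL/6NJ, made by a differentiation protocol for CD4+ T cells. The labels number the libraries as biological replicates 1 to 4 and list 1 donor identifier for the whole group, with age unknown and sex not collected. P-values therefore measure only the spread between these libraries, and that spread may be technical. No other genotype, treatment or time is included, so the comparisons are between genes within libraries and between replicate libraries.

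T cells recognise peptide bound to MHC molecules through a receptor of alpha and beta chains, whose constant regions are encoded by Trac and by either Trbc1 or Trbc2. These chains have short tails that do not signal. Signals pass through the partner chains CD3 epsilon, delta and gamma (Cd3e, Cd3d, Cd3g) and zeta (Cd247), which carry tyrosine motifs (ITAMs) that are phosphorylated by the kinase Lck and then bind the kinase Zap70. Pou2f1 encodes Oct-1, a widely expressed transcription factor that binds octamer sequences, while Gm48719 is annotated as an antisense noncoding gene.

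The library totals were between 1688658 and 2222583 counts. Each count is a read pair assigned to exons on 1 strand, with strand option 1 in the counting command. The sources used here do not say whether that strand is the strand of the transcripts. Every level below is therefore a level on the counted strand, and may not be that of the gene's own transcripts. Genes with an exon of another gene on the opposite strand made up 16.2% of genes and held 91.8 ± 1.35% of counts (SD, n = 4). Of the 13 mitochondrial mRNA genes, mt-Nd6 is the 1 on the minus strand, and it held 87.2 to 92.0% of their counts. The most counts of any gene went to CT010467.1, which took between 1.29% (replicate 1) and 9.40% (replicate 3) of a library. No pair of libraries agreed within sampling noise. The chi-square statistic per degree of freedom, near 1 under sampling alone, was 3.52 (replicates 1 and 4) to 18.5 (replicates 1 and 3). It was not recomputed without CT010467.1.

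The labelled cell type was checked against 16 T cell markers, the 7 receptor chains among them. All 16 had counts in all 4 libraries, against 39.0% of 21764 protein-coding genes, and their summed level was between 259 and 397 TPM (counts per exon base, scaled to a library total of 1000000). Cd247 alone held 158 to 178 TPM of that sum, and 3007 of its exon bases lie opposite exons of Pou2f1. Without Cd247 the sum was 100.5 to 219 TPM. Of 4 gamma delta T cell markers, Tcrg-C1, Tcrg-C2 and Tcrg-C4 were at 0. The sum of 0.69 to 1.82 TPM came from Trdc alone, which has 303 exon bases opposite other genes. Cd8a was at 0, and with Cd8b1 the CD8 sum was 1.73 to 6.44 TPM. Of the B cell markers, Cd79b, Ms4a1 and Pax5 were at 0, and the list had a sum of 4.82 to 9.53 TPM, and all 6 NK cell markers were at 0. Of 6 macrophage markers Adgre1, Itgam and Lyz2 were at 0, while the sum was 140 to 169 TPM. Csf1r made up most of that sum, with 155 ± 14.5 TPM (SD, n = 4), and 871 of its exon bases lie opposite exons of Hmgxb3. Cd68, which has no exon opposite, had 3, 6, 12 and 9 counts in replicates 1 to 4, a mean of 4.54 ± 1.91 TPM (SD, n = 4). A count of 0 allows up to 3 counts, which is a CPM (counts scaled to a library total of 1000000) of 1.35 in replicate 3 and 1.78 in replicate 1. This limit and all intervals below cover counting error only.

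The opposite-strand pairs differ from each other in how their exons meet. The sequences below, from GENCODE transcripts on GRCm38 (mm10) and written 5′ to 3′, show where Cd3e and Gm48719 cover the same coding bases. The Cd3e line is the coding part of its last exon on the minus strand, chr9:44999534-44999587, with the bases opposite Gm48719 in capitals. The Gm48719 line is the plus strand over the same capitals, chr9:44999534-44999563, and is their reverse complement.
Cd3e: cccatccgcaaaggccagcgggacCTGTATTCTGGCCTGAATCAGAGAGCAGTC
Gm48719: GACTGCTCTCTGATTCAGGCCAGAATACAG

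Cd3e (chr9:44998740-45009627, minus strand) has 4080 exon bases, of which 135 lie opposite the first exon of Gm48719 (chr9:44999429-44999563). Of these 135 bases, 30 are the last coding bases of Cd3e and 105 are noncoding, and together they are 3.31% of the Cd3e exons but 37.4% of the 361 exon bases of Gm48719. The other Gm48719 exon, 226 bases at chr9:45002760-45002985, lies in a Cd3e intron. Cd3d (chr9:44981786-44987339, plus strand) and Cd3g (chr9:44969572-44980431, minus strand) start 1354 bases apart and have no exon opposite them. The 3 Cd3 genes span 40056 bases.

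Cd247 (chr1:165788681-165877277, plus strand) and Pou2f1 (chr1:165865154-166002678, minus strand) overlap at their 3′ ends over 3007 exon bases. That is 56.4% of the 5329 exon bases of Cd247 and 18.1% of the 16597 exon bases of Pou2f1. The shared bases fall in 3 stretches of 782, 2136 and 89 bases, at chr1:165866655-165867436, chr1:165869018-165871153 and chr1:165876977-165877065. Of 7 coding Cd247 transcripts, 6 share bases with Pou2f1 exons. The remaining transcript, Cd247-201, has 492 coding bases and encodes the zeta form. Its last exon (chr1:165861004-165862066) ends 3087 bases before the nearest end of Pou2f1. The deposited counts are per gene, so the bases and transcripts that the counts came from were not analysed here.

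**Figure D1:**
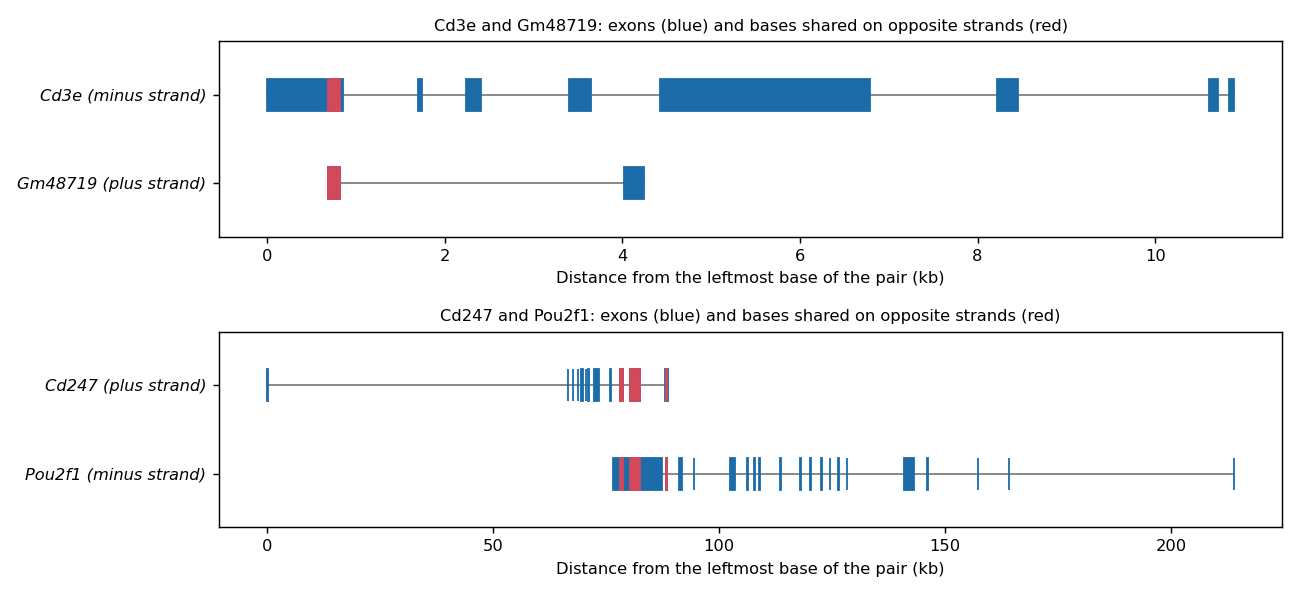
Exon maps of Cd3e with Gm48719 (upper panel) and of Cd247 with Pou2f1 (lower panel), by distance in kilobases from the leftmost base of each pair. Blue boxes are exons and red stretches are the bases with exons on both strands, 135 for Cd3e and Gm48719 and 3007 for Cd247 and Pou2f1.

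The constant genes of the beta chain are near-identical copies, which limits how their counts can be read. Their first coding exons (375 bases) differ by 1 base, C260A for Trbc1 to Trbc2, counted from 1 at the first coding base, and 259 bases in a row are identical. The windows below, on the plus strand at chr6:41538447-41538507 (Trbc1) and chr6:41546959-41547019 (Trbc2), show that base in capitals. The third coding exons, at chr6:41539229-41539335 and chr6:41547772-41547878, differ at 15 of 107 bases, shown in capitals.
Trbc1 exon 1: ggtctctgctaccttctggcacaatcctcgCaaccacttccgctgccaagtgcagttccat
Trbc2 exon 1: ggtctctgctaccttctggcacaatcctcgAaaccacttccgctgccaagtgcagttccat
Trbc1 exon 3: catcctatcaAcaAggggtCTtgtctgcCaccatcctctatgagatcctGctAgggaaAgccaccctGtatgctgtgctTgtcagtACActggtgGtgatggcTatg
Trbc2 exon 3: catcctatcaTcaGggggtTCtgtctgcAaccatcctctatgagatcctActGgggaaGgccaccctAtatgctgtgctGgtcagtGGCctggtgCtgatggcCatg

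Over all 518 coding bases the copies differ at 23 and are 95.6% identical. Read pairs that fit both copies are left out by default in the counting program, so both Trbc levels are uncertain and their sum is given beside them.

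All 9 genes had counts in all 4 libraries, against 21.5% of all genes. The antigen-binding chains were low on the counted strand, which may or may not be the strand of their transcripts. Trac, the alpha constant gene (chr14:54220521-54224206, plus strand, 935 exon bases), had 30, 29, 14 and 30 counts in replicates 1, 2, 3 and 4. Its levels were 27.5, 26.9, 10.02 and 25.02 TPM, with a mean of 22.4 ± 8.29 TPM (SD, n = 4). Replicate 3 lay well below the other three libraries, which were close together. Replicate 3 also had the lowest TPM for 53.3% of protein-coding genes with counts in all 4 libraries and no exon opposite. Fewer cells of a type, less RNA per cell and technical differences between libraries cannot be told apart in these bulk RNA data.

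Trbc1 (chr6:41538218-41539881, 749 exon bases) had 11, 8, 8 and 16 counts in replicates 1 to 4, or 12.6, 9.27, 7.15 and 16.7 TPM. Trbc2 (chr6:41546730-41548352, 692 exon bases) had 15, 18, 7 and 13 counts, or 18.6, 22.6, 6.77 and 14.6 TPM. Both beta genes were lowest in replicate 3, and neither was the higher in every library: Trbc2 was above Trbc1 in replicates 1 and 2 only. The ratio of Trbc2 to Trbc1 per kilobase over all libraries was 1.33 with a 95% exact interval of 0.875 to 2.04, so a difference between the copies was not detectable at this depth. Together the beta genes had 31.2, 31.8, 13.9 and 31.3 TPM, with a mean of 27.1 ± 8.76 TPM (SD, n = 4), beside 22.4 ± 8.29 TPM for Trac. The ranges of the summed beta level and of Trac overlapped.

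In TPM, which divides by all annotated exon bases of a gene, the means of the CD3 chains were below those of Trac, Trbc1 and Trbc2. That order depended on the length used: in CPM, Cd3g (14.5) was above Trac (14.3), and Cd3e (9.63) and Cd3d (9.61) were above Trbc2 (7.37) and Trbc1 (5.83). Cd3e, the epsilon chain that pairs with both delta and gamma, had 13, 17, 18 and 24 counts, or 2.73, 3.62, 2.95 and 4.59 TPM in replicates 1 to 4, with a mean of 3.47 ± 0.83 TPM. Cd3d, the delta chain, had 13, 12, 22 and 26 counts, or 6.14, 5.74, 8.11 and 11.2 TPM, with a mean of 7.79 ± 2.48 TPM. Cd3g, the gamma chain, had 20, 24, 22 and 42 counts, or 5.24, 6.37, 4.50 and 10.02 TPM, with a mean of 6.53 ± 2.45 TPM (SD, n = 4 for each). All 3 were highest in replicate 4, and their lowest library differed from gene to gene.

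Per kilobase, Cd3g stood at 1.87 times Cd3e (95% exact interval 1.38 to 2.56), in 4 of 4 libraries. It stayed higher in counts (1.5 times) and per base of the longest coding transcript (2.14 times, interval 1.58 to 2.93), a length chosen after seeing the data. The place of Cd3d turned with the length. Cd3d stood at 2.28 times Cd3e per kilobase of all exons (1.62 to 3.20), but their counts were 73 and 72, and per base of the longest coding transcript (1617 bases for Cd3d, 1462 for Cd3e) the ratio was 0.917 (0.653 to 1.29). Against Cd3g, Cd3d stood at 1.22 times per kilobase of all exons (0.892 to 1.65) and at 0.428 times per base of the longest coding transcript (0.313 to 0.581).

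On the counted strand Cd247, the zeta chain with the most ITAMs of the complex, stood far above the other chains. Of its exon bases 56.4% lie opposite exons of Pou2f1, while 5 of the other chains have no exon opposite. Whether its counts came from Cd247 transcripts was not tested. Cd247 had 1023, 1026, 1261 and 1217 counts in replicates 1 to 4, or 164, 167, 158 and 178 TPM, with a mean of 167 ± 8.24 TPM (SD, n = 4). Its libraries lay close together, and its lowest level was above the highest level of every other chain. Among protein-coding genes Cd247 ranked 268 of 21764 by mean TPM, against 2192 for Cd3d, 2415 for Cd3g and 3499 for Cd3e. The 6 other chains held 452 counts in all 4 libraries together, against 4527 for Cd247. All 7 chains held 0.0667 ± 0.00485% of counts (SD, n = 4).

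The opposite-strand genes were steady as well. Gm48719 had 2673, 2687, 3022 and 2882 counts in replicates 1 to 4, or 6343, 6460, 5602 and 6225 TPM, with a mean of 6157 ± 383 TPM (SD, n = 4). It ranked 17 of all 50600 genes by mean TPM and 9 of 2566 genes annotated as antisense. Pou2f1 had 574, 589, 713 and 632 counts, or 29.6, 30.8, 28.7 and 29.7 TPM, with a mean of 29.7 ± 0.84 TPM (SD, n = 4), and ranked 955 among protein-coding genes. For both genes the 4 libraries lay within a narrow band, with replicate 3 lowest in TPM.

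By mean TPM the order was Gm48719, Cd247, Pou2f1, Trac, Trbc2, Trbc1, Cd3d, Cd3g and Cd3e. The ranges of Gm48719, Cd247, Pou2f1 and Trac did not overlap with one another, although Pou2f1 at its lowest (28.7 TPM) was only just above Trac at its highest (27.5 TPM). From Trac down to Cd3e, every pair of neighbours had overlapping ranges. Trac was above Trbc2 and Cd3g was above Cd3e in each of the 4 libraries, while Trbc1 was above Cd3d and Cd3d was above Cd3g in 3.

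**Figure D2:**
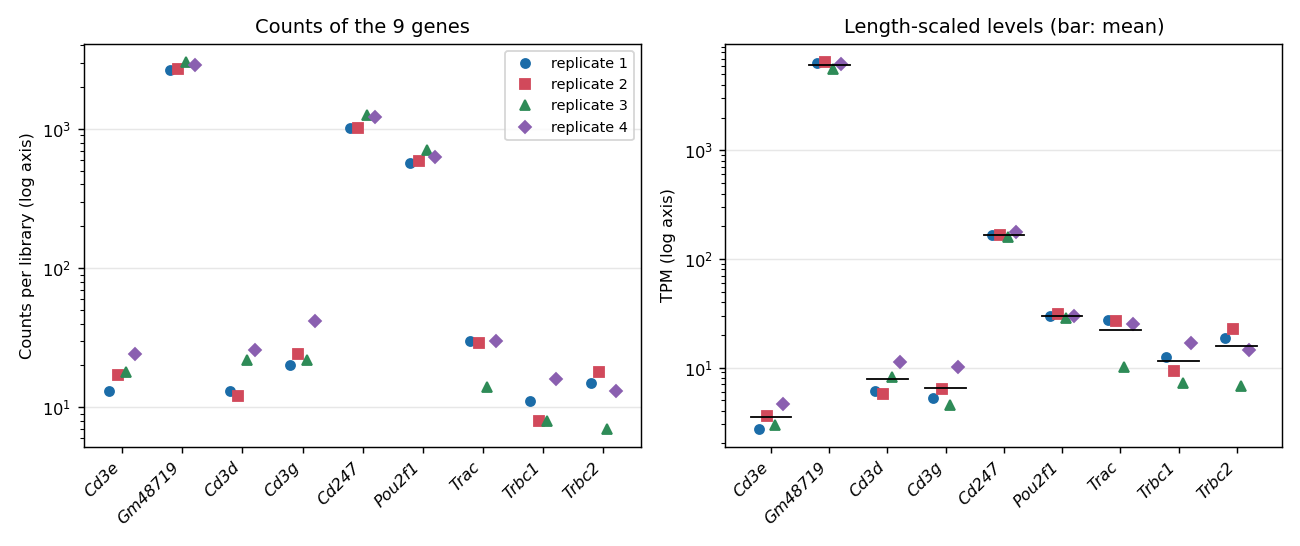
Counts per library (left) and TPM (right) of the 9 genes, each on a log axis, with 1 symbol per library and a bar at the mean TPM. Gm48719 lies near 6157 TPM and Cd247 near 167 TPM, while the 6 other receptor chains have means between 3.47 and 22.4 TPM.

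Cd3e was set against Gm48719 within each library. Per kilobase of exon, the log2 ratio of Cd3e to Gm48719 (0.5 counts added to each) was −11.13, −10.76, −10.85 and −10.38 in replicates 1 to 4, with a mean of −10.78 ± 0.31 (SD, n = 4). Cd3e was the lower gene in 4 of 4 libraries. An exact sign-flip test (two-sided) returned p = 0.13, the smallest that 4 libraries allow. In TPM, Gm48719 stood 2324, 1786, 1897 and 1357 times above Cd3e in replicates 1 to 4. Of the pair's 11336 counts, Cd3e held 0.635% (95% Wilson interval 0.505 to 0.799%), and the share per library was between 0.484 and 0.826%. The intervals of all 4 libraries overlapped.

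This pair was read against all pairs of a protein-coding gene and an antisense gene with overlapping exons. Of 1034 such pairs with 10 or more counts, the protein-coding gene was the lower per kilobase in all 4 libraries in 82.9%, so the direction seen for Cd3e and Gm48719 was the common one. The median log2 ratio was −6.08, with quartiles of −8.04 and −2.85. Among the 1034 pairs, which include Cd3e and Gm48719, a ratio as low as that of Cd3e occurred in 31, 3.00%. Per base of the longest coding transcript the log2 ratio of Cd3e to Gm48719 was −9.30, and the other pairs were not recomputed with that length.

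On the counted strand, Cd247 against Pou2f1 ran the other way from Cd3e, with the chain gene the higher. Whether the counts of each gene came from its own transcripts was not tested. The log2 ratio of Cd247 to Pou2f1 per kilobase was 2.47, 2.44, 2.46 and 2.58 in replicates 1 to 4, with a mean of 2.49 ± 0.06 (SD, n = 4). Cd247 was the higher gene in 4 of 4 libraries, again with an exact sign-flip p (two-sided) of 0.13, the smallest possible. In TPM, Cd247 stood 5.55, 5.43, 5.51 and 6.00 times above Pou2f1, and the 4 values lay close together. In counts, without scaling by length, the log2 ratio was 0.85 ± 0.06 (SD, n = 4). Cd247 held 64.3% of the pair's 7035 counts, and 63.5 to 65.8% per library, with overlapping 95% Wilson intervals.

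Among 1232 pairs of protein-coding genes with overlapping exons, 90.3% had the same gene higher per kilobase in all 4 libraries. The median absolute log2 ratio was 3.18, with quartiles of 1.55 and 5.03, and 61.9% of pairs had a ratio as large as that of Cd247 and Pou2f1. The size of the Cd247 ratio thus lay within the middle of these pairs.

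**Figure D3:**
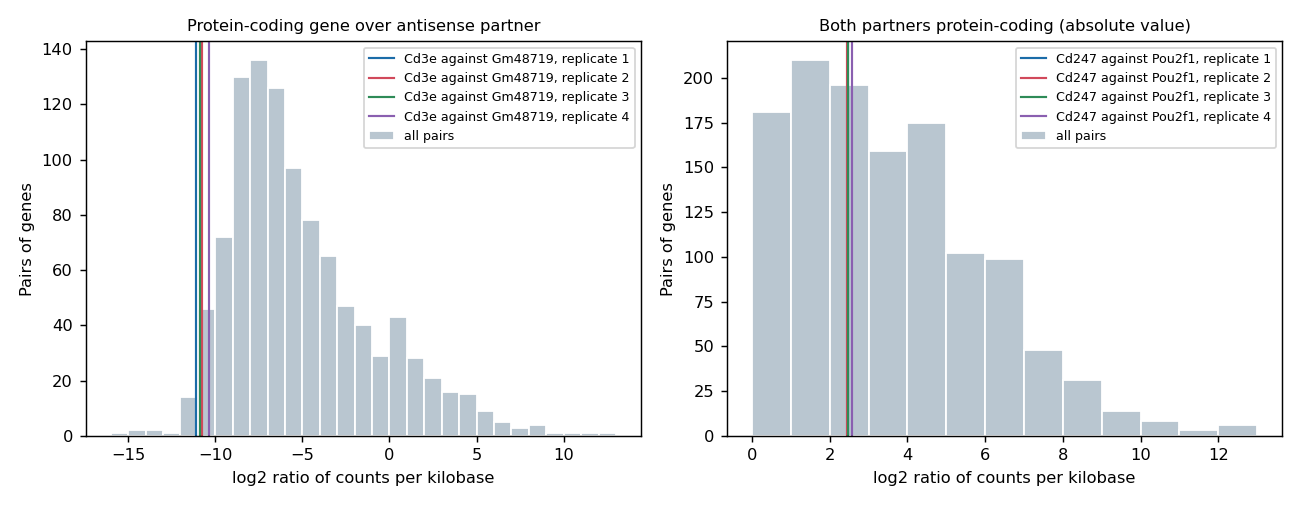
Number of opposite-strand pairs by log2 ratio of counts per kilobase, for 1034 pairs of a protein-coding gene over its antisense partner (left) and for the absolute ratio of 1232 protein-coding pairs (right), with a vertical line per library for the receptor pairs. The lines of Cd3e against Gm48719 lie in the low tail, and those of Cd247 against Pou2f1 lie among the commonest ratios.

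Genes that lie in introns within the span of a member were then counted, and these were chosen after their values were seen. The introns of Cd247 hold 4 annotated genes on its opposite strand, none sharing an exon base with it. Gm37469 had 31, 19, 61 and 55 counts in replicates 1 to 4, Gm37856 had 27, 18, 68 and 47, and Gm32999 had 27, 19, 49 and 40. The small nuclear RNA gene Gm23402 had 3, 0, 6 and 2. Summed, the 4 genes had a CPM of 52.1, 32.8, 82.8 and 76.5, lowest in replicate 2 and highest in replicate 3. Gm17976, opposite Pou2f1, had 6 counts in replicate 3 and 0 in the other libraries, and Gm48720, on the strand of Cd3e, had 1 count each in replicates 1 and 2.

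Variation between replicates was tested with edgeR across 4918 genes, as each gene's spread against that of genes of like abundance. Of the 9 members 7 passed the filter on low counts, Trbc1 and Trbc2 did not, and 0 of 7 passed the adjusted p threshold of 0.05, against 0.447% of all genes tested. No member had an unadjusted p under 0.05 with edgeR or limma, while with edgeR 281 of the 4918 genes tested had one. With limma 0 of 7 members were called as well, against 18 of 4918 genes. Trac had the lowest p of the members, 0.146, with an edgeR adjusted p of 0.965. The SD of log2 CPM was 0.58 for Trac, 0.40 for Cd3g, 0.36 for Cd3d and 0.25 for Cd3e, beside a median of 0.24 over all genes tested. For Pou2f1 (0.09), Gm48719 (0.08) and Cd247 (0.04) it was smaller.

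The spread of each member was set against the spread that counting alone gives. The coefficient of variation of CPM was 24.0% for Cd3e, where counting alone gives 23.6%, and 31.8% for Cd3d, where counting gives 23.4%. For Trbc1 it was 36.9%, against a counting value of 30.5%. It was 37.6% for Trac and 37.6% for Cd3g, against counting values of 19.7% and 19.2%, and 43.2% for Trbc2, against 27.5%. For Gm48719 the observed value was 6.90% and the counting value 1.88%, and for Cd247 these were 5.38% and 2.97%. Pou2f1, at 3.15%, was below its counting value of 3.99%. These values rest on library totals, and the comparison with counting was not made on the TMM scale. There the order of Cd247 and Pou2f1 turned, with an SD of log2 CPM of 0.04 for Cd247 and 0.09 for Pou2f1.

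**Figure D4:**
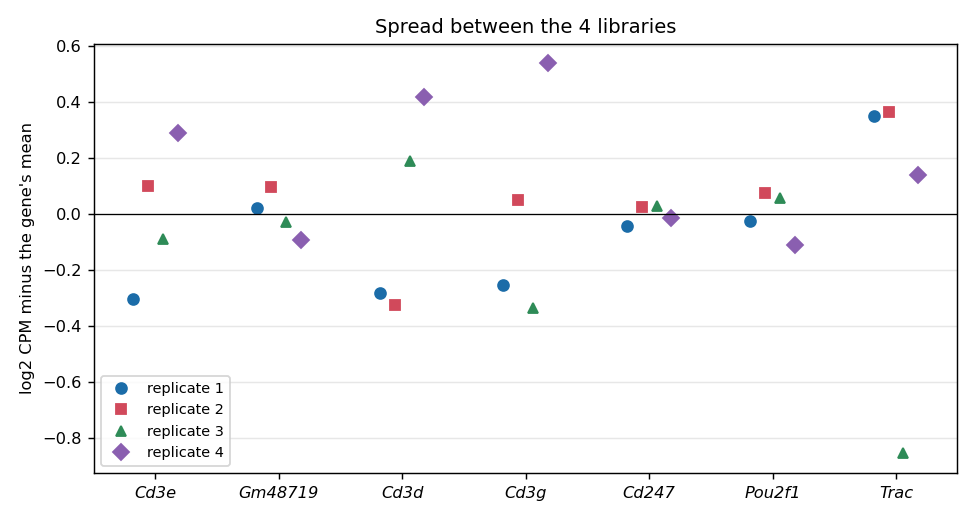
Log2 CPM (TMM-scaled) of the 7 tested members in each library, minus the gene's mean, with 1 symbol per library. The points of Gm48719, Cd247 and Pou2f1 lie close to 0, and Trac in replicate 3 lies at −0.86.

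Replicate 3 was the library with the lowest TPM for 7 of 9 members, and Cd3e (replicate 1) and Cd3d (replicate 2) were the exceptions. On the TMM scale of the variation test it was the lowest for 2 of the 7 members tested, Cd3g and Trac, so for Gm48719, Cd247 and Pou2f1 the lowest library depended on the scale. In TPM the same held for 49.7% of the 8486 protein-coding genes with counts in all 4 libraries, for 53.3% of those with no exon opposite and for 43.6% of those with one. The 5 chains with no exon opposite summed to 70.0, 70.9, 36.6 and 77.5 TPM in replicates 1 to 4. In the same libraries genes with no exon opposite held 8.31, 7.75, 6.70 and 9.93% of counts, and CT010467.1 held 1.29, 5.05, 9.40 and 1.62%. Replicate 3 was the extreme library in all of these measures, and their part in the level of the chains was not tested.

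The genes whose library-to-library pattern was most like each member were found among 2835 genes, by Euclidean distance of centred log2 CPM over the 4 libraries. For Cd247 these were Msto1 (0.024), Ccdc74a (0.026) and Gm15265 (0.026), and for Pou2f1 they were Mrps25 (0.020), Gm15964 (0.021) and Npc1 (0.022). For Gm48719 they were Dvl2 (0.021), Srrd (0.023) and 2310068J16Rik (0.031). The low chains, whose spread between libraries was larger, had no gene as near. The nearest genes of Cd3e were Gm44085 (0.110), Hivep3 (0.118) and Comtd1 (0.118), those of Cd3d were Rpl27a (0.082), Gm9812 (0.099) and Snrnp70 (0.124), and those of Cd3g were Prrc2c (0.081), Eef1g (0.108) and Prrc2a (0.110). Trac was nearest to Mbnl1 (0.148), Rplp1 (0.149) and Rpsa (0.159). With 4 libraries, the distances are a description. They were not scaled by the spread of each gene, so genes that vary little lie near one another whatever the direction of their changes.

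Among members, Gm48719 and Pou2f1 were the closest to each other (distance 0.103), followed by Cd247 and Pou2f1 (0.112) and Gm48719 and Cd247 (0.135). The Cd3 chains, with a larger spread, lay further apart, at 0.356 for Cd3e and Cd3g, 0.527 for Cd3e and Cd3d, and 0.660 for Cd3d and Cd3g. Whether their changes between libraries run in the same direction is not measured by these distances. Cd3e and Gm48719, which share bases, had a distance of 0.506. Trac stood furthest from Cd3d (1.43), the chain that was lowest in replicate 2 and had more TPM in replicate 3 than in replicate 1.

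On the counted strand, the other genes of the receptor pathway had levels well below that of Cd247, which has exon bases opposite Pou2f1. Of 10 coreceptors and costimulatory genes, 9 had counts in all 4 libraries and none has an exon opposite. Their median was 7.45 TPM, against 0.128 TPM over all protein-coding genes and 2.46 TPM over those with counts in all 4 libraries. Among protein-coding genes with no exon opposite these 2 medians were 0 and 1.79 TPM. Cd6, which binds ALCAM, averaged 23.8 ± 6.36 TPM, and the adhesion receptor Cd2 averaged 15.1 ± 4.54 TPM (SD, n = 4 for both). Of 20 proximal kinases and adaptors 14 had counts in all 4 libraries, with a median of 2.74 TPM. Zap70, the kinase that docks on phosphorylated ITAMs, averaged 13.1 ± 2.68 TPM, and its adaptor target Lcp2 averaged 10.7 ± 2.17 TPM (SD, n = 4 for both). Syk, the related kinase of B cells and myeloid cells, was at 0 in all 4.

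Downstream genes were lower, with a median of 1.44 TPM and 12 of 14 counted in all libraries. Prkcq, the kinase PKC theta, averaged 11.4 ± 2.26 TPM, and Malt1, of the complex that activates NF-kappa B, averaged 3.47 ± 1.22 TPM (SD, n = 4 for both). Of 13 negative regulators 12 were counted in all libraries, with a median of 2.2 TPM. The phosphatase gene Ptpn6 (17.7 ± 5.78 TPM) and Csk (8.86 ± 3.60 TPM), the kinase that restrains Lck, were the highest (SD, n = 4 for both). Of these 57 pathway genes 21 passed the filter on low counts, and 0 of the 21 passed the edgeR variation test, against 0.447% of all genes tested. In edgeR's quasi-likelihood fit over all genes, Ptprc, the CD45 phosphatase, had an adjusted p of 0.348, and the kinase gene Fyn had an adjusted p of 0.737. These 2 genes alone among the lists had an unadjusted p under 0.05 in that fit, against 281 of all 4918 genes tested.

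Chains of other receptors were mostly at or near 0, with Cd79a, a signalling chain of the B cell receptor, as the exception. Of 6 gamma delta and pre-receptor genes 5 were at 0, and Trdc, the 1 with an exon opposite, had 6, 6, 4 and 9 counts. Of 4 ITAM genes of other lineages Cd79b and Fcer1g were at 0 and Tyrobp averaged 0.54 ± 0.63 TPM (SD, n = 4). Cd79a, with no exon opposite, had 15, 16, 20 and 9 counts and averaged 8.09 ± 2.2 TPM (SD, n = 4), beside 7.79 TPM for Cd3d. Of the octamer factors, Pou2f2 averaged 9.31 ± 2.44 TPM, below Pou2f1 in all 4 libraries. Pou2f2 has no exon opposite, unlike Pou2f1. Pou2f3 was at 0 and the coactivator Pou2af1 had 1 count in each of 2 libraries.

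Neighbouring genes of the receptor loci were mostly low, but Trpv6 had a higher mean TPM than Trbc1, Cd3d, Cd3g and Cd3e. All 6 listed neighbours of the Cd3 cluster have an exon opposite. Beside the Cd3 cluster, Kmt2a averaged 1.72 ± 0.46 TPM and Mpzl3 averaged 0.57 ± 0.39 TPM. Beside Cd247, Rcsd1 averaged 1.75 ± 0.14 TPM and Creg1 averaged 1.26 ± 0.81 TPM. Around the constant genes, Trpv6 averaged 14.99 ± 0.94 TPM and Prss2 averaged 2.07 ± 1.18 TPM (SD, n = 4 throughout). Cd247 and Gm48719 were thus far above the listed genes next to them.

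**Figure D5:**
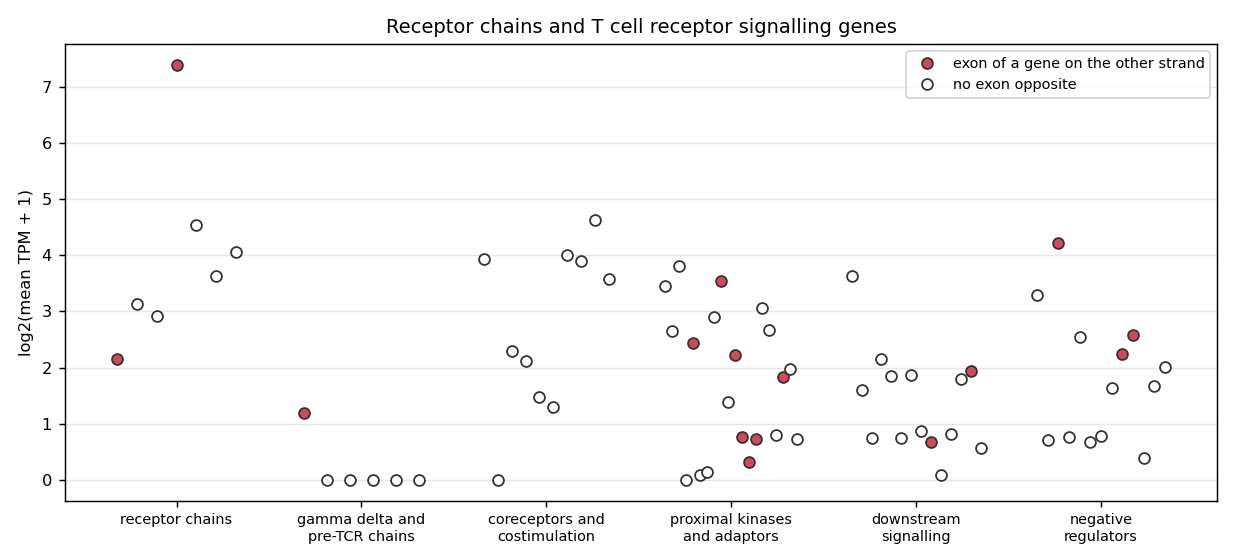
Mean level of each gene of the receptor chain and signalling lists as log2(mean TPM + 1), 1 point per gene, filled where an exon of a gene lies on the other strand. Cd247 (167 TPM) is the highest point, above all other chains and signalling genes shown.

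Opposite-strand pairs in the pathway lists, chosen after their values were seen, were set beside the pairs of the receptor genes. In 12 of 13 pairs, made by 12 pathway genes, the partner was the higher per kilobase in all 4 libraries, while over 4290 comparisons of a protein-coding gene with an opposite partner of any type (10 or more counts) this was so in 60.2%. The phosphatase gene Ptpn6 had 59, 54, 46 and 90 counts in replicates 1 to 4, against 3633, 3462, 4107 and 3517 for its antisense partner Gm20531, a mean log2 ratio of −6.95 per kilobase. Cd3e, at −10.78, was below all 13 pairs. Sh2d1a against Tenm1 had the highest ratio at 1.49, and in no pair was the pathway gene higher in all 4 libraries. Cd247, higher than Pou2f1 in all 4, had the direction found in 31.3% of the 4290 comparisons.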

How the data were processed

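RNA of 4 libraries of mouse T-helper 2 cells was sequenced. The authors deposited raw counts per gene with exon coordinates and exon lengths, made with featureCounts 1.4.6-p4 on GENCODE M13 (options for read pairs with both ends aligned, strand option 1, exons grouped by gene), per the file headers. The labels give build mm10. The name of the alignment file in the header holds star2 and 16 hours, which the labels do not mention. The sources used here say no more of the aligner. The assay title says total RNA while the name of the linked protocol speaks of poly(A) RNA. No option to count multi-mapping or multi-overlapping reads appears in the header, so such reads are left out by that program's default. The depth was 1688658 to 2222583 counts.

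TPM was computed from counts and deposited lengths. Symbols, types, transcripts and coding parts came from GENCODE M21 on the same build, matched by identifier for 99.6% of genes, and exon bases of the 9 genes were the same in both. Overlaps used bedtools 2.31.1. Pair ratios added 0.5 counts and were tested by exact sign flips over 16 patterns. The test of variation used edgeR 4.0.16 (TMM scaling, filterByExpr, a robust quasi-likelihood fit with an intercept, upper tail of the quasi-dispersion over its prior, Benjamini-Hochberg adjustment), after being tested on simulated data. limma 3.58.1 and DESeq2 1.42.0 size factors were alternatives, with R 4.3.3 and Python 3.11.15. Other settings covered scale, length, filter, prior, tool, pseudocount and each replicate left out. Leaving out the gene with most counts, scaling by the longest coding transcript, chain ratios in counts, a higher count limit for pairs and lists without genes that have an exon opposite were added after seeing the data.

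The members and lists were chosen with earlier results of these data known. Named genes are all members, the 2 members of each other list with the highest mean TPM plus any that passed the variation test, the 3 genes nearest each tested member (mean count of 50 or more), mt-Nd6 and the gene with most counts. Genes named at 0, Trdc, Ptprc, Fyn, genes in introns of members and pathway pairs were chosen after their values were seen. Counts and sums over lists include genes that are not reported singly here.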

Additional observations from a re-analysis of the deposited data

Results flagged for a closer look

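Trac in replicate 3 was set apart from the other libraries of its group by Dixon's test of 4 samples. Its level was 10.02 TPM there, against 27.5, 26.9 and 25.02 TPM in replicates 1, 2 and 4. The gap to the nearest library made up 0.859 of the whole range, above the 95% critical value. Of 11 groups of values checked this was the 1 that passed, and chance flags about 1 in 20. The level rests on 14 counts in replicate 3, and without that library the mean of Trac was 26.5 TPM, against 22.4 TPM with it.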

How the results depend on the processing

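The direction of both pair ratios was the same under every setting tried. The log2 ratio of Cd3e to Gm48719 was −11.41 to −7.28, and that of Cd247 to Pou2f1 was 0.85 to 3.40, in each case between the ratio without length scaling and the ratio over unshared exon bases. No member passed the variation test under any setting, including those with looser filters that tested all 9. The number of genes called among all genes was 22 and 22 again with DESeq2 size factors, 18 with limma, 2 with library totals only, 56 with any count as the filter, 44 with a mean count of 10, 9 with a prior that is not robust, and 11 to 21 with each replicate left out, the lowest without replicate 4. Of the 9 members, 4 kept their rank on the CPM scale and 4 on the CPM scale with TMM, which do not divide by length, and 4 when scaled by the longest coding transcript. With that length the ratio of Cd3d to Cd3e was 0.917 and that of Cd3d to Cd3g 0.428, and in counts these ratios were 1.01 and 0.676, against 2.28 and 1.22 per kilobase of all exons. The CD3 chains then no longer all lay below Trac, Trbc1 and Trbc2 (Cd3g at 20.9 TPM, Trac at 22.4 TPM and Trbc1 at 11.6 TPM). Levels in TPM over protein-coding nuclear genes were higher for all 9 (Cd247 at 709 TPM, against 167), and scaling by unshared exon bases put Cd247 at 383 TPM and Gm48719 at 9836 TPM. Depth limits the 6 low chains, with 43 to 108 counts each over 4 libraries. No paired analysis was possible because there is 1 group. In pairs of 100 or more counts, a limit chosen after seeing the data, the protein-coding gene was lower than its antisense partner in all 4 libraries in 89.5% of 800 pairs.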
